A study of Mus musculus with 6 samples.

Results

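The Kruppel-like factors (KLFs) described here are 10 transcription factor genes, Klf2, Klf3, Klf4, Klf5, Klf6, Klf9, Klf10, Klf11, Klf13 and Klf15. They were found by symbol among the 46983 genes of a read count table from mouse pancreatic islets, and all 10 were in the table and passed the filter on low counts, as 13996 genes did. The table holds 6 libraries of polyadenylated RNA from wild-type islets kept in CMRL medium for 24 h, 3 at high (stimulating) glucose and 3 at low (non-stimulating) glucose. Islets are the endocrine clusters of the pancreas that contain the insulin-secreting beta cells. The labels name the cells both as beta cells and as islets, so every value is a bulk value over all cells of the preparation. Neither the sugar concentrations nor the mouse strain or animal numbers are stated in the labels. The 10 genes were chosen by symbol with their high and low glucose expression values in this table already known. Their differences between the groups are therefore given as a description and not as a test of the family.

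KLFs bind GC-rich and CACCC-type elements through a set of zinc fingers at the C-terminal end of the protein, which is much alike across the family, as it is in the related Sp factors. They differ mainly in the N-terminal part, which recruits coactivators in some members and corepressors in others. Klf2, Klf4, Klf5 and Klf6 are mostly described as activators that also repress in some settings. Klf3, like Klf8 and Klf12, recruits the corepressor CtBP, while Klf9, Klf10, Klf11 and Klf13 bind the corepressor Sin3A. Klf15 is known for amino acid breakdown and gluconeogenesis in liver and muscle. In the pancreas, KLF11 has been reported to act on the insulin promoter.

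Promoter windows, from 250 bases before to 50 bases after the annotated start, were held in a RefSeq table (GRCm38.p6) for 8 of the 10 genes. Klf5 and Klf10 had no entry. The upstream stretches of the 2 genes with the widest differences between the groups, Klf15 and Klf6, and of Klf9 and Klf2, which differ in the motifs they hold, are printed 5′ to 3′. Capitals mark the E-box CACGTG (bound by clock factors and MYC, and read the same on both strands). They also mark the AP-1-like pattern TGANTCA, whose middle base may be any, the MEF2 element and the CACCC box CCCACCC. Each was searched on both strands (the CACCC box of Klf2 reads GGGTGGG). No marked element overlaps another in these stretches.
Klf15 (chr6:90462326-90462575, plus strand): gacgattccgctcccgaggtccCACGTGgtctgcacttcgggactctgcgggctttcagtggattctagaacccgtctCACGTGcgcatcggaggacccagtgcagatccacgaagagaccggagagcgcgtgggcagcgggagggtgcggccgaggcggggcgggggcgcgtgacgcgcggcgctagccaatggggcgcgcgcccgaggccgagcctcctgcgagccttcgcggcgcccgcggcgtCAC
Klf6 (chr13:5861239-5861488, plus strand): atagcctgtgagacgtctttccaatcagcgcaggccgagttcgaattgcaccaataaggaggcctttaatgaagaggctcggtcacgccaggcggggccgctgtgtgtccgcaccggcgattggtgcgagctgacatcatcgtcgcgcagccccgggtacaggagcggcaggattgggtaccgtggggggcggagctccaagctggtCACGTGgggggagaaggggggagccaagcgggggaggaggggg
Klf9 (chr19:23140976-23141225, plus strand): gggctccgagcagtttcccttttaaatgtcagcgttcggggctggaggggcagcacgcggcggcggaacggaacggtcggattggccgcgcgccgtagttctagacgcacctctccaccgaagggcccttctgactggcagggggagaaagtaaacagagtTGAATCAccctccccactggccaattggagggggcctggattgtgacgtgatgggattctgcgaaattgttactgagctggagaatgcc
Klf2 (chr8:72318812-72319061, plus strand): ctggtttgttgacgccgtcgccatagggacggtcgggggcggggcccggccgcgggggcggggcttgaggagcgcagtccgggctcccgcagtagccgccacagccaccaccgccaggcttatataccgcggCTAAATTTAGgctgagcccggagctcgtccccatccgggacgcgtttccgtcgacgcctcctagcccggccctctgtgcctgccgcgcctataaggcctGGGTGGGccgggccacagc

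Klf15 held 3 E-boxes, whose first bases were at positions -228, -172 and -3 from the start, so that only the first letters of the last one fall within the printed stretch. Klf6 held 1, Klf4 held 1 and Klf11 held 1, which makes 4 of the 8 windows, against 7.15% of all 32851 promoter windows of the same length. Klf9 held none of these E-boxes but a match to the AP-1-like pattern, which is found in 7.81% of all windows. The match reads TGAATCA, with neither C nor G as its middle base. Klf2 held a MEF2 element (3.19% of all windows) and, with Klf3 and Klf13, a CACCC box (17.5% of all windows). The GC box GGGCGG, which Sp and Kruppel-like factors bind, was in 7 of the 8 windows, against 35.7% of all. G and C made up 63% to 77.7% of the bases in the 8 windows, and the shares of all windows were not matched for that. Neither the CRE TGACGTCA (1.79% of all windows) nor the glucocorticoid response element (0.475%) was found in any of the 8. The 8 genes were not chosen independently of the expression values, and these matches are a description of letters, not of binding.

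Total counts were 14150726 to 15846235 in the high and 10596020 to 12730985 in the low glucose libraries. The makeup of the libraries differed too. A list of 16 acinar markers, mostly genes of the enzymes that the exocrine pancreas secretes, took 11.5% to 22.8% of the counts at high and 43.7% to 58.0% at low glucose. A list of 18 hormone and granule genes took 10.8%, 4.07% and 4.71% in high glucose replicates 1 to 3. It took 4.93%, 2.32% and 2.51% in low glucose replicates 1 to 3, so that high glucose replicates 2 and 3 lay below low glucose replicate 1. Of 8 beta cell markers, all detected, 3 fell and none rose by the threshold given below, against 14.2% and 13.3% of all genes tested. The median log2 fold change of these markers was -0.72. Their summed level, carried mostly by hormone genes, was 39658, 17676 and 21174 CPM in high glucose replicates 1 to 3. It was 33423, 25664 and 30737 CPM in low glucose replicates 1 to 3, so that high glucose replicates 2 and 3 lay below every low glucose library. Hormone RNA was thus found in every library beside the acinar RNA. Values are in CPM, the count per 1000000 of a library size scaled by TMM, a method that sets the bulk of genes equal between libraries. On library totals, the log2 fold changes of all genes have a median of 1.16 instead of 0.01. High glucose replicate 1 stood apart: its chi-square per degree of freedom was 178 and 157 against the other high glucose libraries, which differed from each other by 16.2. Low glucose replicate 1 gave 61.8 and 85.9 against the other low glucose libraries, which differed from each other by 26.2.

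The KLFs split between the groups. Klf15 was 10.1-fold lower and Klf9 was 2.16-fold lower in the high glucose libraries, whereas Klf6 was 3.30-fold, Klf10 2.46-fold and Klf13 1.36-fold higher. The other 5, Klf2, Klf3, Klf4, Klf5 and Klf11, did not pass the threshold used for all genes, an adjusted p under 0.05 in edgeR's quasi-likelihood test. That threshold was passed by 27.5% of all genes tested, 13.3% higher and 14.2% lower, against 5 of the 10 KLFs, 3 higher and 2 lower. The libraries of the groups did not overlap for 6 of the 10, against 45.9% of all genes tested. Because these values were known when the genes were picked, nothing is read from either count. With the replicate number as a block, 4 of the 10 passed, Klf13 being lost.

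**Figure D1:**
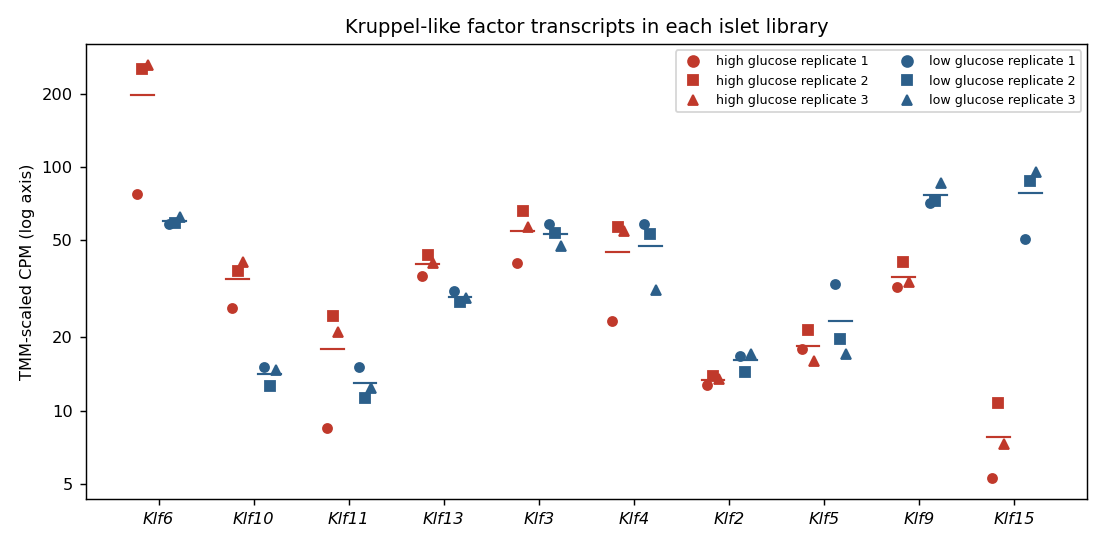
Each point is the TMM-scaled CPM of a gene in 1 library, on a log axis, with high glucose libraries left of low glucose libraries and a line at the mean of 3. Klf15 and Klf9 lie lower and Klf6, Klf10 and Klf13 higher in all high glucose libraries, and high glucose replicate 1 lies far below the other 2 for Klf6, Klf4 and Klf11.

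Among the activators, Klf6, an early gene of injury and growth factor responses, had 77.3, 252.8 and 263.8 CPM in high glucose replicates 1 to 3, against 58.3, 58.8 and 62.6 CPM in low glucose replicates 1 to 3. The low glucose libraries were nearly level, and high glucose replicate 1 lay close to them while the other 2 were far above. The log2 fold change was 1.72 ± 0.43 (SE, n = 3 each). Klf6 fell short of the threshold in 5 of the 6 fits that left out 1 library (1.46 without high glucose replicate 3, 1.51 without high glucose replicate 2, and 1.70, 1.71 and 1.75 without low glucose replicates 1, 2 and 3). Without high glucose replicate 1 the log2 fold change was 2.11, and it passed. Klf6 lies on chromosome 13 (5861482 to 5870394, GRCm38, plus strand).

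Klf4, a factor of epithelial differentiation and growth arrest that is also used to reprogram cells, had 23.4, 56.7 and 54.7 CPM in the high glucose libraries, against 58.3, 53.0 and 31.3 CPM in the low glucose libraries. The groups overlapped, with a low value in 1 library of each, and the log2 fold change was -0.09 ± 0.37 (SE, n = 3 each). Klf5, a factor of proliferating epithelium such as intestinal crypts, had 17.97, 21.52 and 16.02 CPM at high and 33.0, 19.6 and 17.1 CPM at low glucose, where replicate 1 alone was high. Its log2 fold change was -0.34 ± 0.27 and became 0.01 without low glucose replicate 1. Klf2, known from vascular endothelium and resting T cells, had 12.8, 13.8 and 13.5 CPM at high and 16.7, 14.5 and 17.1 CPM at low glucose. These values do not overlap, but they differ little (log2 -0.27 ± 0.16), and the difference turns to 0.86 with library totals, where it passes as higher though below the median shift, and to 0.04 with library sizes taken from hormone and granule genes.

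Of the KLFs that bind Sin3A, Klf10 and Klf11 are known as TGF-beta-inducible early genes. Klf10 had 26.4, 37.3 and 40.6 CPM at high glucose and 15.1, 12.6 and 14.6 CPM at low glucose. Every high glucose library was above every low glucose library, with a log2 fold change of 1.30 ± 0.20 (SE, n = 3 each) that stayed between 1.17 and 1.46 with 1 library left out. Klf11 had 8.45, 24.4 and 21.0 CPM at high and 15.1, 11.3 and 12.4 CPM at low glucose. High glucose replicate 1 was the lowest of the 6 libraries and the other 2 were the highest, so that the log2 fold change of 0.46 ± 0.38 became 0.80 without that library, where it passed, and 0.17 without high glucose replicate 2.

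Klf13, known from T cells as an activator of the chemokine gene Ccl5, had 35.6, 43.7 and 40.4 CPM at high glucose and 30.9, 27.9 and 28.9 CPM at low glucose. The groups did not overlap, and the log2 fold change was 0.45 ± 0.14 (SE, n = 3 each), just inside the threshold. It did not pass in 5 of the 6 fits with 1 library left out, where the log2 fold change was 0.38 (without high glucose replicate 2) to 0.49 (without low glucose replicate 1), with 0.44 without high glucose replicate 3 or low glucose replicate 3 and 0.42 without low glucose replicate 2. Beside these and the block, it did not pass with DESeq2 size factors (0.44), the 1 CPM filter (0.43), limma-voom (0.44) or hormone and granule gene sizes (0.78). Klf9, a gene induced by glucocorticoids and thyroid hormone, had 32.0, 40.7 and 33.9 CPM at high glucose, against 71.4, 72.8 and 86.2 CPM at low glucose. All high glucose libraries were well below all low glucose libraries, with a log2 fold change of -1.11 ± 0.16. With library totals that difference was 0.05, below the median shift of 1.16, and with library sizes taken from hormone and granule genes it was -0.79 and did not pass.

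Klf3, the CtBP-binding member, had 40.2, 66.4 and 56.8 CPM at high and 58.5, 53.7 and 47.6 CPM at low glucose. The ranges overlapped and the log2 fold change was 0.03 ± 0.20. The gene overlaps the antisense gene Gm20033, whose count was at most 13 in any library, while Klf3 itself had 303 to 1329 counts.

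Klf15 had 5.27, 10.8 and 7.26 CPM at high glucose, against 50.8, 87.9 and 95.5 CPM at low glucose. It showed the widest difference of the 10, with a log2 fold change of -3.33 ± 0.35 (SE, n = 3 each), and it kept its direction and its side of the threshold with library totals (-2.12), with hormone and granule gene sizes (-2.97) and with each library left out (-3.64 to -3.11). The gene lies on chromosome 6 (90462576 to 90475238, GRCm38, plus strand). Acinar markers moved with it: 14 of 16 fell and none rose, against 14.2% and 13.3% of all genes tested. Their median log2 fold change was -3.13. With 1 library left out, between 6 and 14 of them fell, and the median was -3.41 to -2.82. Low glucose replicate 1 had both the lowest Klf15 and the lowest acinar share of its group. Set against the counts of the 16 acinar markers in the same library, a ratio that no scaling enters, Klf15 had 81.7, 64.8 and 46.1 counts per 1000000 acinar counts at high and 109, 86.1 and 93.2 at low glucose. On that denominator the groups still did not overlap. The mean at high glucose was 1.498-fold lower there, beside the 10.1-fold of the edgeR fit. Set against the 18 hormone and granule genes, the mean at high glucose was 7.80-fold lower. In bulk RNA, fewer cells of a type and less RNA per cell cannot be told apart. Intestinal epithelium markers were lower as well (7 of 7 tested fell, summed level 22.02 to 131 CPM at high and 1158 to 4151 CPM at low glucose), and the part of other cells in the Klf15 difference was not tested.

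**Figure D2:**
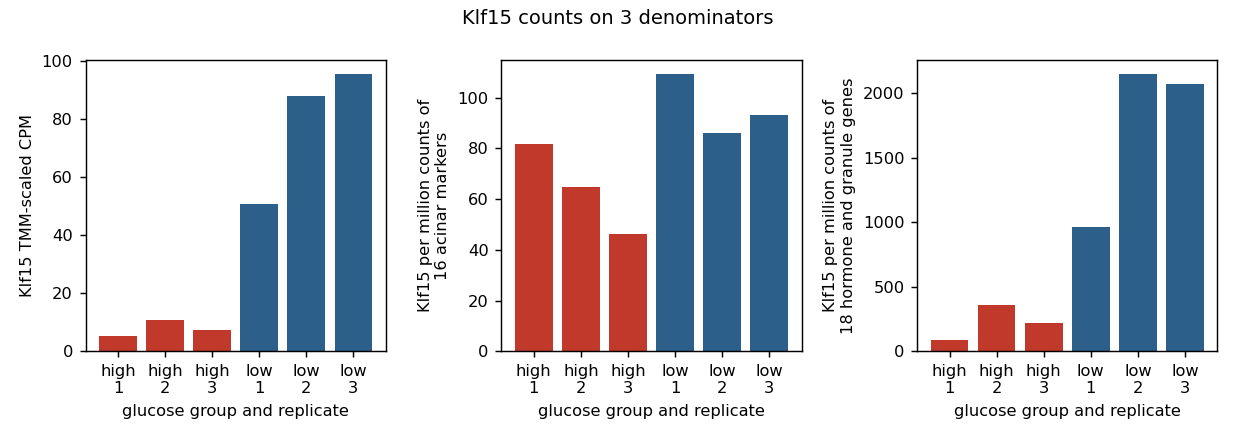
Klf15 in each library, high glucose left of low glucose, as TMM-scaled CPM, as counts per 1000000 counts of 16 acinar markers, and as counts per 1000000 counts of 18 hormone and granule genes. Bars start at 0. The means in the first panel are 7.77 CPM at high and 78.1 CPM at low glucose, which edgeR fitted as a 10.1-fold difference. The gap of the means is 1.498-fold in the second panel and 7.80-fold in the third.

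Every other of the 10 genes was higher at high glucose per acinar count, with no overlap, as were 84.1% of all genes tested. Over the 13983 genes with counts in a low glucose library, the mean per acinar count was 6.86-fold higher at the median, and 1.68% of all genes tested were lower with no overlap, as Klf15 was. Klf9 was 3.10-fold higher per acinar count, less than that median, while per hormone and granule count its libraries overlapped. Klf10 was higher on both denominators with no overlap, 15.1-fold per acinar count and 3.18-fold per hormone and granule count. Klf6 was 18.003-fold higher per acinar count and 4.51-fold per hormone and granule count, but on the second its libraries overlapped, with high glucose replicate 1 below 2 of the low glucose libraries. Per hormone and granule count the median over genes was 1.23-fold, with 14% of all genes tested higher and 13.3% lower without overlap. The 10 genes were chosen with this contrast known, so nothing is read from these shares.

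**Figure D3:**
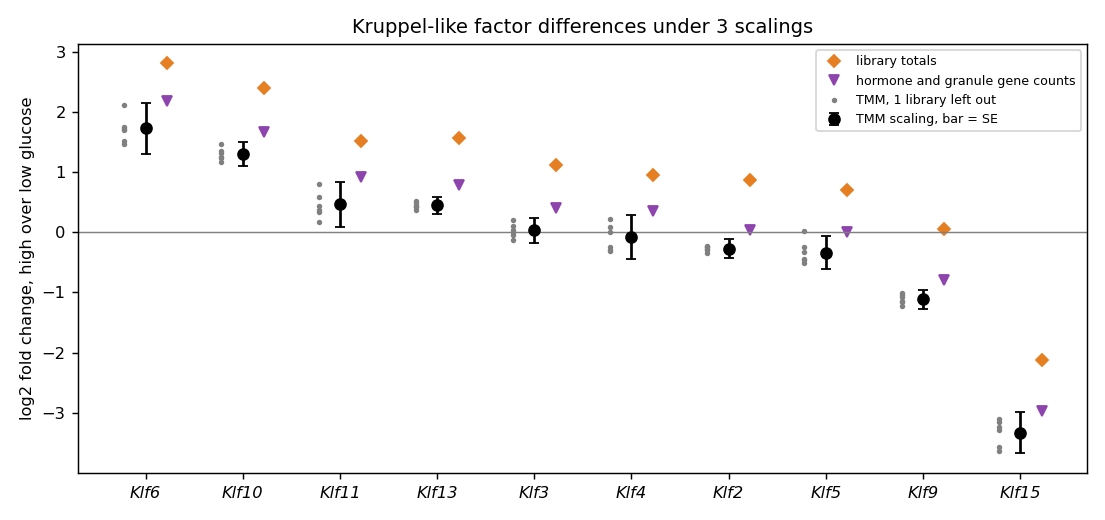
Log2 fold changes, high over low glucose, of the 10 genes. Black points are TMM values with SE, grey points leave out 1 library each, diamonds use library totals and triangles use hormone and granule gene counts as sizes. Klf15 is below 0 and Klf6, Klf10, Klf11 and Klf13 are above 0 at every point shown. Klf2, Klf4, Klf5 and Klf9 change sign with library totals.

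Ratios between KLFs within a library need no scaling. There were 3.46 to 5.60 Klf10 counts per Klf15 count in the high glucose libraries, against 0.144 to 0.297 in the low glucose libraries. The ratio of Klf6 to Klf9 was 2.41 to 7.79 at high and 0.726 to 0.817 at low glucose, and that of Klf9 to Klf13 was 0.839 to 0.930 at high and 2.31 to 2.98 at low glucose. None of these 3 ratios overlapped between the groups. Klf11 to Klf10, the pair of TGF-beta-inducible genes, was 0.321 to 0.654 at high and 0.849 to 1.00 at low glucose. Klf6 to Klf10 did overlap, with 2.93 to 6.77 at high and 3.87 to 4.66 at low glucose. These pairs were picked after their values were seen.

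Divided by exonic length, the order of the genes differed between the groups. At high glucose Klf6 came first with 45.1 ± 23.8 CPM per kb (SD, n = 3), followed by Klf4 with 14.7 ± 6.12, Klf10 with 8.32 ± 1.79, Klf9 with 7.38 ± 0.946 and Klf2 with 7.23 ± 0.291, and Klf15 came last with 2.78 ± 1.00. Ranges of neighbours in that order overlapped everywhere except between Klf2 and Klf13. At low glucose Klf15 had the highest mean, 28.0 ± 8.57 CPM per kb, above the range of the next by mean, Klf9 (15.9 ± 1.69), but its range of 18.2 to 34.2 overlapped that of Klf4, which reached 19.1. Klf4 (15.6 ± 4.69) also overlapped Klf9 and Klf6 (13.6 ± 0.529), which did not overlap each other. Klf2 (8.72 ± 0.782) stood below these, and Klf10 and Klf11 came last with 3.38 ± 0.310 and 2.98 ± 0.445.

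As a share of the summed per-length level of all 17 Klf genes in the table, Klf15 made up 2.78%, 2.81% and 1.97% in high glucose replicates 1 to 3, against 17.7%, 29.2% and 31.6% in low glucose replicates 1 to 3. Klf6 made up 26.0%, 41.8% and 45.5% at high and 12.9%, 12.4% and 13.2% at low glucose. Klf4 was near level, with 12.8% ± 1.29 at high and 14.7% ± 4.72 at low glucose (SD, n = 3 each). The summed level itself was 67.8, 138 and 132 CPM per kb at high and 103, 108 and 108 CPM per kb at low glucose, so high glucose replicate 1 was the lowest of the 6.

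**Figure D4:**
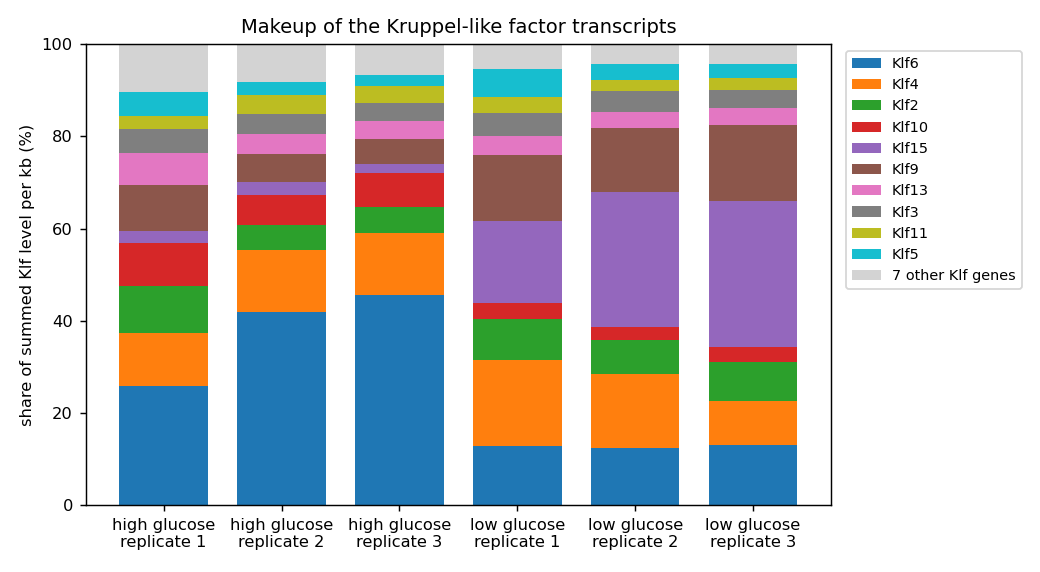
Each bar is 1 library, high glucose on the left, split into the share (%) of each Kruppel-like factor in the summed TMM-scaled CPM per kb of all 17 Klf genes. Klf15 takes 1.97% to 2.81% at high and 17.7% to 31.6% at low glucose, and Klf6 takes 26.0% to 45.5% at high and 12.4% to 13.2% at low glucose.

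High glucose replicate 1 was set apart for some KLFs and not for others. Its CPM divided by the mean of the other 2 high glucose libraries was 0.299 for Klf6, 0.373 for Klf11, 0.420 for Klf4 and 0.584 for Klf15, but 0.936 for Klf2 and 0.957 for Klf5. The same quotient was 0.296 for the duct keratin gene Krt19 and 0.376 for the corepressor gene Ctbp2. That library also had the highest summed levels of its group for markers of macrophages (143 CPM, against 24.4 CPM in the lowest), lymphocytes (97.0 against 6.59 CPM), fibroblasts and stellate cells (263 against 42.9 CPM) and endothelium (273 against 129 CPM). Summed over the same 8 markers each, the low glucose libraries had 135 to 198, 66.0 to 94.7, 295 to 387 and 246 to 303 CPM. No marker of these 4 lists was at 0 counts over all libraries. High glucose replicate 1 also had the highest hormone and granule share of its group (10.8%, against 4.07% and 4.71%). Its beta cell marker sum was the highest too (39658 CPM, against 17676 and 21174 CPM). Its acinar share (11.5%, against 22.8% and 22.1%) and its duct marker sum (575 CPM, against 980 and 932 CPM) were the lowest of its group. The duct marker sum was 380, 328 and 261 CPM in low glucose replicates 1 to 3, below every high glucose library. Of the 6 duct markers, 2 rose and none fell, against 13.3% and 14.2% of all genes tested, with a median of 0.09. The part of these marker differences in the KLF values of high glucose replicate 1, or of either group, was not tested.

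Of the 7 other Klf genes, 4 were tested. Klf7 rose by 0.83 ± 0.25 (edgeR adjusted p = 0.0428), with 18.9, 29.2 and 26.3 CPM at high and 17.9, 11.5 and 12.1 CPM at low glucose. Klf16, a further Sin3A-binding member, rose by 0.92 ± 0.22 (edgeR adjusted p = 0.0204), with 10.8, 16.7 and 12.4 CPM at high and 6.86, 7.15 and 7.08 CPM at low glucose. The groups did not overlap for either gene. Klf7 did not pass with the replicate block (0.82), with limma-voom (0.78), with hormone and granule gene sizes (1.22) or without high glucose replicate 2 (0.70) or 3 (0.79) or low glucose replicate 2 (0.72) or 3 (0.74). Klf16 did not pass with those sizes (1.28), nor without high glucose replicate 2 (0.73) or 3 (0.97) or low glucose replicate 1 (0.91), 2 (0.94) or 3 (0.93). The CtBP-binding Klf8 (1.00 ± 0.40) and Klf12 (-0.33 ± 0.41) did not pass. Klf1, the erythroid member, had at most 4 counts in a library, and Klf14 and Klf17 had 0 counts in all 6.

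None of the 5 Sp factors tested passed by edgeR, and their median log2 fold change was -0.00, against 0.01 for all genes. Sp1 was at 0.06 ± 0.14 and Sp3 at -0.35 ± 0.13. At an unadjusted p under 0.05, edgeR's test gave 1 of the 5, Sp3, against 41.5% of all genes tested, and DESeq2 also called it lower (adjusted p = 0.0477). Without high glucose replicate 1, 1 Sp gene rose and 1 fell. With library totals 4 of the 5 were higher, with a median of 1.15 against the shift of 1.16.

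Of 9 KLF cofactor genes, 1 fell, against 14.2% of all genes tested, and none rose. It was Kat2b, which encodes an acetyltransferase, with a log2 fold change of -0.86 ± 0.15 that turned to 0.30 with library totals and did not pass there, nor with hormone and granule gene sizes (-0.55). The Sin3A and CtBP corepressor genes gave 0.02 ± 0.14 for Sin3a, 0.17 ± 0.16 for Ctbp1 and 0.83 ± 0.37 for Ctbp2, and none of these passed. Without high glucose replicate 1, 3 cofactor genes rose. The 3 ubiquitin ligase genes whose products act on KLF proteins (Fbxw7, Wwp1 and Itch) had a median of -0.36 and none passed by edgeR. At an unadjusted p under 0.05, edgeR's test gave 1 of the 3, Wwp1 (-0.63), against the same 41.5% of all genes. It passed with the replicate block (adjusted p = 0.0255) and by DESeq2 (adjusted p = 0.0339).

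The route from the kinase MEK5 to ERK5 and MEF2 factors drives Klf2 and Klf4 in endothelium. Of 13 genes of that route and of the CCM complex that restrains it, 4 rose and none fell, against 13.3% and 14.2% of all genes tested. The median was 0.35. Mapk7, which encodes ERK5, had 17.1, 30.9 and 28.4 CPM at high and 9.54, 8.64 and 7.71 CPM at low glucose, a rise of 1.55 ± 0.26 (edgeR adjusted p = 0.00536). Map2k5, which encodes MEK5, rose by 0.80 ± 0.19, and the deacetylase gene Hdac7 rose by 0.86 ± 0.19. Map2k5 did not pass without high glucose replicate 2 (0.76) or 3 (0.83) or low glucose replicate 3 (0.82), and Hdac7 did not without high glucose replicate 3 (0.76) or low glucose replicate 2 (0.81). Klf2 and Klf4 themselves did not pass, as given above. With 1 library left out, between 1 (without high glucose replicate 3) and 4 (without high glucose replicate 1, where 1 fell) of the 13 rose, with 2 each without high glucose replicate 2 or low glucose replicate 2. With hormone and granule gene sizes 1 rose and 1 fell. The replicate block gave 4 higher and 1 lower, and DESeq2 gave 4 higher and 2 lower.

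Of 11 TGF-beta pathway and early response genes, 4 rose and none fell, against 13.3% and 14.2% of all genes tested. The median was 0.75. Skil, which encodes a SMAD corepressor, had 66.8, 57.1 and 60.2 CPM at high and 35.3, 28.9 and 27.0 CPM at low glucose, a rise of 1.008 ± 0.154 (edgeR adjusted p = 0.00417), and the ligand gene Tgfb1 rose by 1.201 ± 0.220. With 1 library left out, between 3 and 7 rose, the highest count without high glucose replicate 1. Of 11 immediate early genes, which are induced alongside several KLFs by growth factors, 5 rose and none fell, with a median of 0.95. They included Dusp1, a phosphatase gene (1.79 ± 0.20), Atf3 (3.37 ± 0.65) and the AP-1 subunit gene Junb (1.60 ± 0.32). Only 3 rose without high glucose replicate 2 or 3 or low glucose replicate 2 or 3.

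The glucocorticoid receptor is a known inducer of Klf9 and Klf15. Of 7 genes, the receptor gene Nr3c1 and 6 of its targets, 3 fell and none rose, against 14.2% and 13.3% of all genes tested. The median was -0.63. Sgk1, a kinase gene, had 27.2, 17.3 and 17.5 CPM at high and 140, 208 and 162 CPM at low glucose, a log2 fold change of -3.04 ± 0.26 (edgeR adjusted p = 7.24e-04). Tsc22d3, which encodes the glucocorticoid-induced leucine zipper protein, fell by 1.58 on the log2 scale (± 0.17) and Nr3c1 by 0.51 (± 0.15). With library totals Sgk1 was at -1.80 and passed, Tsc22d3 was at -0.45 and did not pass, and Nr3c1 was at 0.63 and did not pass. Over the whole list, 1 gene fell and 1 rose with library totals. With hormone and granule gene sizes 1 fell, Sgk1 (-2.86), while Tsc22d3 (-1.23) and Nr3c1 (-0.23) did not pass. Nr3c1 did not pass without high glucose replicate 2 (-0.55) or 3 (-0.44) or low glucose replicate 1 (-0.47) or 2 (-0.45) either. Fkbp5, a receptor target often used as a readout, was at 0.02 ± 0.17. Of 10 clock genes, whose reported outputs include Klf9 and Klf15, 3 fell and none rose, against the same 14.2% and 13.3% of all genes. The median was -0.71, and none passed without high glucose replicate 2, high glucose replicate 3 or low glucose replicate 2. Without low glucose replicate 1, 1 fell, with library totals none fell and 1 rose, and with hormone and granule gene sizes none passed. Per1 is on both lists.

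Of 17 tested genes reported as targets of single KLFs in various tissues, 2 rose and 5 fell, against 13.3% and 14.2% of all genes tested. The median was 0.03. Gpt and Bcat2, amino acid transaminase genes reported downstream of Klf15 in liver and muscle, both fell. Gpt had 1.95, 3.20 and 4.84 CPM at high and 49.0, 51.5 and 30.3 CPM at low glucose, a log2 fold change of -3.72 ± 0.38 (edgeR adjusted p = 0.00119). Bcat2 had 18.4, 22.7 and 26.5 CPM at high and 65.0, 135 and 154 CPM at low glucose, a log2 fold change of -2.39 ± 0.33 (edgeR adjusted p = 0.00296). Bcat2 had its lowest low glucose value in replicate 1, as Klf15 and the acinar markers did. Gpt had its lowest in replicate 3, as the summed intestinal epithelium markers did (4151, 3395 and 1158 CPM in low glucose replicates 1 to 3). The part of cell makeup in either difference was not tested. Prodh, a proline dehydrogenase gene also reported downstream of Klf15, was at -0.76 ± 0.46 and did not pass. Tagln, a smooth muscle gene reported as a Klf5 target, fell by 3.17 on the log2 scale (± 0.39). Among 8 fibroblast and stellate cell markers, 3 fell and none rose, against the same 14.2% and 13.3% of all genes, with a median of -1.40. The part of such cells in the Tagln difference was not tested. The endothelial Klf2 targets Nos3 (-0.10 ± 0.40) and Thbd (0.34 ± 0.26) did not pass. Without low glucose replicate 1, 3 fell, and without low glucose replicate 2, 3 fell and 1 rose. With the replicate block 4 rose and 6 fell.

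**Figure D5:**
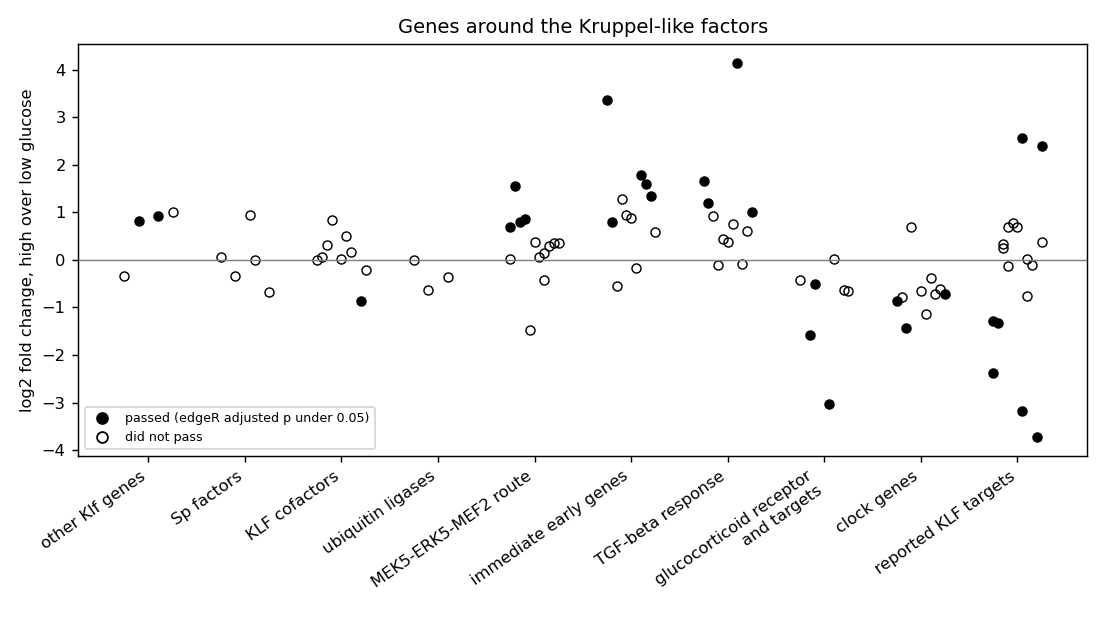
Each point is the log2 fold change, high over low glucose, of 1 tested gene of a list named on the horizontal axis, filled where it passed edgeR's adjusted p under 0.05 and open where it did not. Genes of the TGF-beta and immediate early lists that passed lie above 0, and those of the glucocorticoid receptor and clock lists that passed lie below 0.

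By the distance between log2 profiles centred over the 6 libraries, the genes nearest to Klf6 among 8221 were Dusp16 (0.207), Zfp36l1 (0.244) and St14 (0.262), against a median distance of 2.30. They encode a MAP kinase phosphatase, an RNA-binding protein and a membrane protease. The genes nearest to Klf15 were Gatm (0.250), Bmp3 (0.452) and Slc38a5 (0.452), against a median of 4.10. Gatm, which encodes a creatine synthesis enzyme, had 57.0, 91.5 and 76.6 CPM at high and 433, 780 and 926 CPM at low glucose, so that its low glucose libraries ran in the same order as those of Klf15. The 6 libraries share the group difference, which weighs most in such distances.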

How the data were processed

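RNA of 6 islet libraries (500 ng input and 9 PCR cycles, per the labels) was measured as deposited read counts per gene. The authors used STAR 2.7.3a, HTSeq 0.6.1p1 and GRCm38, per the submitters' processing notes. The annotation release and the strand setting of the counting are not given in the sources used here, so antisense overlaps (Klf3 with Gm20033, Klf7 with Gm13748) cannot be told apart. Symbols, exonic lengths and coordinates came from GENCODE M21, which named all but 495 of the 46983 gene IDs.

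Counts were fitted with edgeR 4.0.16 (R 4.3.3): filterByExpr with a minimum count of 10 and total of 15, TMM, the quasi-likelihood F-test of high over low glucose, and Benjamini-Hochberg adjustment over 13996 genes with a threshold of 0.05. An SE is that of the log2 fold change. Alternatives used DESeq2 1.42.0, limma 3.58.1, other sizes and filters, and each library left out. Nearest genes used log2(CPM + 1) and a mean of at least 10 CPM. The members and lists were chosen with earlier results of these data known. For each list, at most 3 genes that passed, those with the smallest p, were named by rule. 1 gene of the TGF-beta list that the rule would name is not reported here. Sin3a, Ctbp1, Ctbp2, Wwp1, Fkbp5, Prodh, Nos3, Thbd and the genes set beside high glucose replicate 1 were named after their values were seen.

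Libraries with the same replicate number deviated together (correlations 0.42, 0.24 and 0.33, against -0.37 to 0.14 for other pairs), so a fit with the number as a block was run. No label says what the number stands for. Nothing says that libraries came from separate animals, so the p-values cover the spread among these libraries only, which may be technical. Total counts were 10596020 to 15846235, and the lowest count of a member was 68 (Klf11 in low glucose replicate 2).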

Additional observations from a re-analysis of the deposited data

How the results depend on the processing

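The 10 log2 fold changes were recomputed under 16 alternatives, which gave 160 values. Direction and side of the threshold held in 127. With the direction kept, the call was lost in 16 and gained in 3. The sign turned in 14, among them Klf9 with library totals, which lost its call, and Klf2 with library totals, which gained one. Klf10 and Klf15 kept both under all 16. The sign turned with library totals for Klf2 (0.86), Klf4 (0.94), Klf5 (0.71) and Klf9 (0.047), with hormone and granule gene sizes for Klf2 (0.041), Klf4 (0.34) and Klf5 (0.010), and without the filter on low counts for Klf4 (0.016). With 1 library left out, the range was -0.14 to 0.21 for Klf3, which was also at -0.00 and -0.04 without high glucose replicate 3 and low glucose replicate 3. It was -0.31 to 0.22 for Klf4, with 0.09 without low glucose replicate 1, and -0.51 to 0.014 for Klf5. The cause was not tested. Of the 10 genes, 5 passed in the reported fit, 3 with hormone and granule gene sizes, 7 with library totals (6 higher, 1 lower), 4 with the replicate block, and between 3 and 6 with 1 library left out. Of all genes, 3848 passed, against 8978 with library totals (8349 higher, 629 lower), 2107 with hormone and granule gene sizes, 4670 with the replicate block, and 1761 (without low glucose replicate 2) to 5602 (without high glucose replicate 1) with 1 library left out. In the block fit Klf13 (0.44) and Klf7 (0.82) lost their call and Wwp1 gained it. With library totals, where 8349 of 13996 genes were higher, 11 of 11 TGF-beta, 11 of 13 MEK5 to ERK5 and 8 of 11 immediate early genes were higher. None of these 3 lists had a gene lower there. Depth limits the low genes most, since 1 CPM stands for 6.02 to 28.3 counts across the libraries.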
